A study of Cricetulus griseus with 16 samples.

Results

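The genes described here are chemokine ligands that CHO cells, a Chinese hamster ovary line, were examined for, together with the growth factor gene Csf1 and the chemokine receptor gene Ccr7. The list holds 9 names, Cxcl1, Ccl2, Ccl7, Ccl20, Cxcl10, Cxcl12, Cx3cl1, Csf1 and Ccr7, which were looked up by name, case ignored, among the 20824 genes of the count matrix, of which 14960 had at least 1 count. Of the 9 names, 8 had a row, 7 reached 3 or more counts in any library, and 6 had enough counts to be tested in all 6 comparisons made here. The list was drawn up because Cxcl1, Ccl2 and Ccr7 had lower counts under different heat doses. The values and ranks of these 3 genes are therefore given as a description with no p-value. Neither coordinates nor sequences of these genes were used, since the count matrix names them by symbol and identifier only.

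RNA was sequenced from cultures of this single cell line (labelled CHO, ATCC CCL-61) that were kept at 37 °C, heated at 40 °C for 1 h, heated at 40 °C for 6 h, or heated at 42.5 °C for 1 h. The 3 heated groups cover a mild heat treatment of short duration, the same temperature held longer, and a hotter treatment of short duration. Each group had 4 libraries, lettered A to D, which the labels describe as biological repeats. No other treatment or genetic change is given for any group, and the unheated cultures served as the controls of all 3 heated groups. The labels give no time for the unheated cultures and no separate control for 6 h. In comparisons that involve the 6 h group, longer heat and longer time in culture therefore cannot be told apart.

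Chemokines are small secreted proteins that guide the migration of leukocytes by binding G protein-coupled receptors on their surface. Inflammatory chemokines such as CXCL1, CCL2 and CXCL10 are made by many non-immune cells, including fibroblast-like and epithelial cells, after cytokine or stress signals, and their genes are known NF-kB targets whose transcripts often turn over quickly. Homeostatic chemokines such as CXCL12 are made more steadily, and the receptor CCR7 is best known for guiding dendritic cells and lymphocytes to lymph nodes.

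The libraries held between 10504192 and 14668365 counted reads, so that 3 counts, taken as the floor of detection, were worth 0.205 to 0.286 CPM, the unit of counts scaled to a common library size. Levels are CPM after TMM, a normalization that sets the bulk of genes equal between libraries, and are compared within a gene, not between genes. At 37 °C, replicate D stood 1.5-fold or more away from replicates A to C for 1745 of 10565 genes (16.5%), whereas the other 15 libraries stood that far from their own group for 0.549% to 1.54% of genes. The study left out a control sample that stood apart from its group, which its text does not name, and the 37 °C values below are from replicates A to C, with replicate D given where it changes a result. Vim, a mesenchymal marker, was between 1820 and 2380 CPM. St6gal1 (0 counts) and Mgat3 (at most 2 counts), which encode glycosyltransferases that CHO cells are known to lack, were near 0. Leukocyte markers were near 0: of 9 listed, 7 had a row, none exceeded 1 count in any library, Adgre1 had 0 counts, and their sum was at most 0.177 CPM in every group. The sum of the endothelial markers was at most 0.326 CPM. In bulk RNA, fewer cells with a transcript and less transcript per cell cannot be told apart.

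Of the 7 detected members, the transcripts of Ccl2, Ccl7 and Ccr7 were at 36.2%, 34% and 36.1% of the control mean after 6 h at 40 °C, whereas Cxcl1 had its lowest level, 13.4% of the control mean, after 1 h at 42.5 °C. Cxcl12 was the only detected member whose mean exceeded that of control replicates A to C in any heated group, after 6 h at 40 °C. After 1 h at 40 °C no member passed the test against the controls. The levels of all 7 genes in every library are plotted together to show that these patterns differ between the listed genes.

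**Figure D1:**
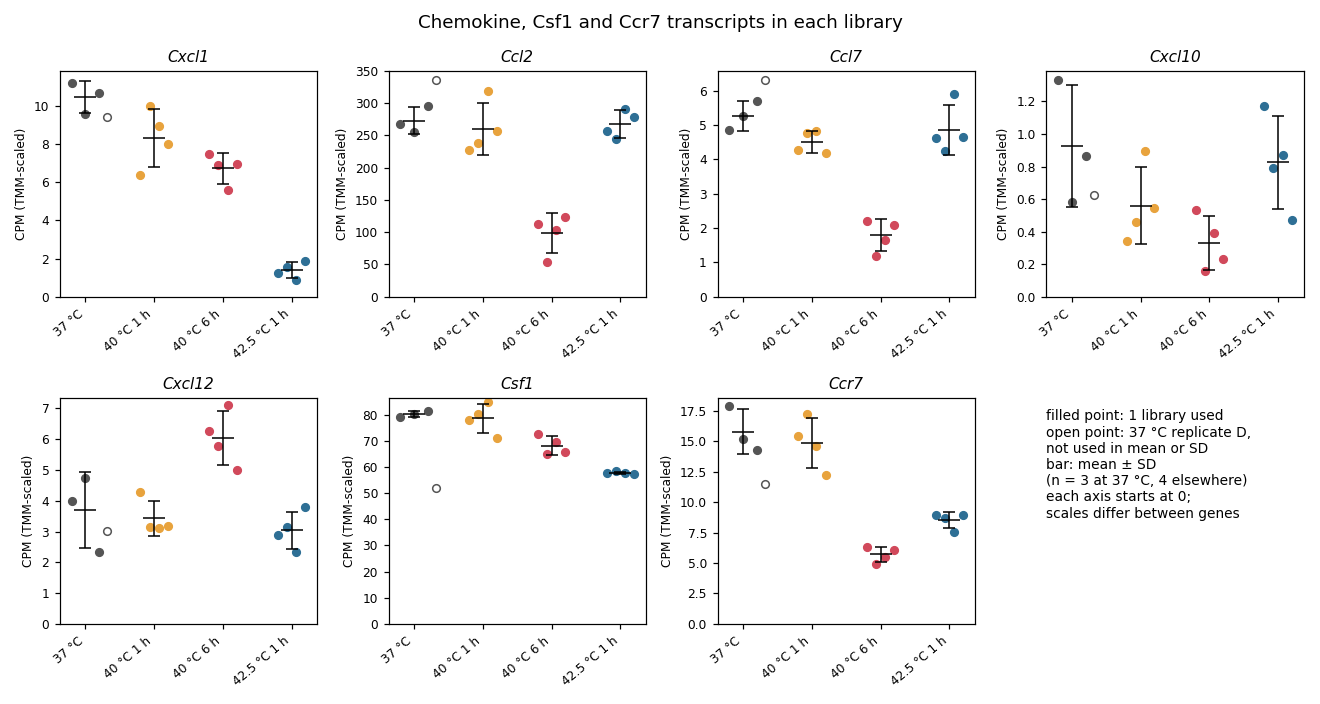
Levels of the 7 detected members in each library, in CPM scaled by TMM (vertical axis, starting at 0 in each panel) for the 4 heat groups (horizontal axis). Filled points are libraries, bars are mean ± SD (n = 3 at 37 °C and 4 in each heated group), and the open point is 37 °C replicate D. The 42.5 °C points of Cxcl1 (0.872 to 1.89 CPM) and the 40 °C 6 h points of Ccl2, Ccl7 and Ccr7 lie below all other libraries of the gene.

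Cxcl1 (ENSCGRG00001017483) encodes a neutrophil-attracting chemokine that signals through CXCR2. Its level at 37 °C was 11.2, 9.56 and 10.7 CPM in replicates A to C, and 9.43 CPM in replicate D. After 1 h at 40 °C it was 6.39, 9.98, 8.97 and 7.99 CPM, and after 6 h at 40 °C it was 7.5, 6.89, 5.6 and 6.94 CPM. After 1 h at 42.5 °C it was 1.26, 1.58, 0.872 and 1.89 CPM, from 9 to 24 counts per library. The 42.5 °C libraries lay below every other library, the 40 °C 6 h libraries lay below every control, and the 40 °C 1 h libraries overlapped with both the controls and the 6 h libraries.

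Against 37 °C (10.5 ± 0.824 CPM, SD, n = 3), the mean level of Cxcl1 was 79.6% after 1 h at 40 °C, 64.3% after 6 h at 40 °C and 13.4% after 1 h at 42.5 °C. The fitted log2 differences were -0.34 ± 0.134 (SE), -0.64 ± 0.122 and -2.88 ± 0.177, the last equal to a 7.34-fold lower level. At 42.5 °C, 1 of the 10470 genes tested had a lower log2 difference from 37 °C, a rank that restates the selection of Cxcl1 for its fall. The 6 h value, 1.56-fold lower, lay just past the 1.5-fold limit used for calls, and without 40 °C 6 h replicate C it was -0.56, short of that limit.

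Ccl2 (ENSCGRG00001010610) encodes the monocyte-attracting chemokine also called MCP-1, whose receptor is CCR2. The 37 °C level was 267, 255 and 296 CPM in replicates A to C and 336 CPM in replicate D. At 40 °C it was 227, 238, 318 and 256 CPM after 1 h, but 113, 54.5, 103 and 124 CPM after 6 h. At 42.5 °C it was 256, 244, 291 and 279 CPM. The highest 40 °C 6 h library was thus below the lowest library of every other group, and the other 3 groups overlapped.

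The mean of Ccl2 after 6 h at 40 °C (98.7 ± 30.7 CPM, n = 4) was 36.2% of that at 37 °C (273 ± 21.2 CPM, n = 3), a log2 difference of -1.47 ± 0.157. It was 95.2% of the control after 1 h at 40 °C and 97.9% after 1 h at 42.5 °C, with log2 differences of -0.07 ± 0.0882 and -0.04 ± 0.0604. The most divergent library, 40 °C 6 h replicate B with 689 counts, did not carry the difference alone, since the log2 difference without it was -1.27.

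Ccl7 (ENSCGRG00001016678), which encodes MCP-3, another monocyte-attracting chemokine of the same cluster of related genes, was not one of the 3 genes on which the list was chosen. Its level was 4.84, 5.25 and 5.69 CPM at 37 °C and 4.28, 4.76, 4.81 and 4.19 CPM after 1 h at 40 °C. After 6 h at 40 °C it was 2.21, 1.19, 1.66 and 2.1 CPM, from 15 to 27 counts, and after 1 h at 42.5 °C it was 4.61, 4.24, 5.91 and 4.65 CPM. As for Ccl2, the 40 °C 6 h libraries lay below all libraries of the other groups.

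Ccl7 fell after 6 h at 40 °C to 34% of the control mean, a log2 difference of -1.56 ± 0.191 (edgeR quasi-likelihood test, Benjamini-Hochberg adjusted p = 2.08e-05, 95% interval -1.96 to -1.15). After 1 h at 40 °C the log2 difference was -0.22 (adjusted p = 0.482, 95% interval -0.5 to 0.0643), and after 1 h at 42.5 °C it was -0.12 (adjusted p = 0.534, 95% interval -0.434 to 0.193). Only 6 of the 10499 genes tested after 6 h at 40 °C had a lower log2 difference from the control than Ccl7.

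Ccl2 and Ccl7 kept nearly the same proportion in all groups. There were 52 ± 3.31 Ccl2 counts per Ccl7 count at 37 °C, 57.6 ± 7.38 after 1 h at 40 °C, 54.6 ± 7.32 after 6 h at 40 °C and 55.5 ± 4.62 at 42.5 °C. The ranges over libraries, 48.6 to 55.2, 50 to 66.2, 45.9 to 62.1 and 49.1 to 60, overlapped throughout. The 2 genes are similar in sequence, and how reads that match both were counted is not given in the sources used here, so whether Ccl2 reads contribute to the Ccl7 counts was not tested. The scatter of the counts of both genes shows this shared proportion library by library.

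**Figure D2:**
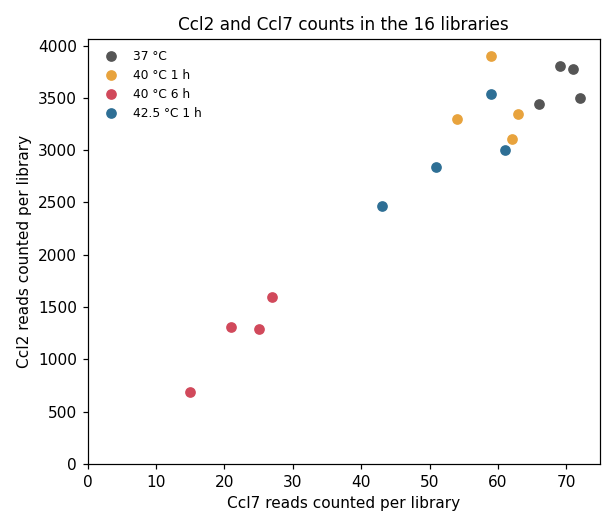
Reads counted on Ccl2 (vertical axis) against reads counted on Ccl7 (horizontal axis), both starting at 0, with 1 point for each of the 16 libraries coloured by group. The 4 libraries heated at 40 °C for 6 h (15 to 27 Ccl7 counts) stand apart at the lower left, and the libraries of the other 3 groups lie together at 43 to 72 Ccl7 counts.

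Cxcl10 (ENSCGRG00001000274), whose product attracts activated T cells through CXCR3, was close to the floor. It had 19, 8 and 10 counts at 37 °C (0.926 ± 0.379 CPM), 5, 6, 11 and 7 counts after 1 h at 40 °C (0.56 ± 0.24 CPM), 6, 2, 5 and 3 counts after 6 h at 40 °C (0.329 ± 0.166 CPM), and 13, 8, 9 and 6 counts at 42.5 °C (0.827 ± 0.288 CPM). All 4 libraries of 40 °C 6 h lay below all 3 controls, by a narrow margin, and the other groups overlapped with the controls. The log2 difference from 37 °C was -0.76 after 1 h at 40 °C (adjusted p = 0.386, edgeR) and -0.20 after 1 h at 42.5 °C (adjusted p = 0.682). After 6 h at 40 °C the gene did not pass the filter on low counts. With no filter its log2 difference there was -1.51 ± 0.465, and a single fit over all 4 groups gave -1.50. In the single fit it passed the filter only through libraries of the other groups. Both values rest on at most 6 counts per 40 °C 6 h library and are a description with no p-value.

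Ccl20 (ENSCGRG00001024047), the ligand of CCR6, had 1 count in 42.5 °C replicate A and 0 counts in the other 15 libraries. It was below the floor of 3 counts in every library, so no change in it was detectable at this depth. Cx3cl1, which encodes fractalkine, a chemokine with a membrane-anchored form, had no row under that name. The matrix lists 4423 genes by identifier only, so that its level is not reported.

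Cxcl12 (ENSCGRG00001018723) encodes a homeostatic chemokine that binds CXCR4 and the atypical receptor ACKR3. Its level was 4, 4.74 and 2.33 CPM at 37 °C and 4.28, 3.15, 3.1 and 3.18 CPM after 1 h at 40 °C. After 6 h at 40 °C it was 6.27, 5.78, 7.1 and 4.99 CPM, and at 42.5 °C it was 2.89, 3.16, 2.33 and 3.79 CPM. Every library of 40 °C 6 h lay above every library of the other groups, although the distance between the lowest of them and the highest control was small.

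Cxcl12 was higher after 6 h at 40 °C (6.03 ± 0.884 CPM, n = 4) than at 37 °C (3.69 ± 1.24 CPM, n = 3), by a log2 difference of 0.68 ± 0.193 (adjusted p = 0.0134, edgeR, 95% interval 0.273 to 1.09). The call rested in part on 37 °C replicate C, the lowest control with 27 counts, as the log2 difference without it was 0.46 with an adjusted p of 0.0687. With all 4 controls it was 0.75 (adjusted p = 0.0472). The difference from 37 °C was -0.12 after 1 h at 40 °C (adjusted p = 0.845, 95% interval -0.569 to 0.33) and -0.30 after 1 h at 42.5 °C (adjusted p = 0.305, 95% interval -0.772 to 0.181).

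Csf1 (ENSCGRG00001007365) encodes macrophage colony-stimulating factor, the main growth and survival factor of macrophages. It was 78.9, 80.3 and 81.5 CPM at 37 °C, 78, 80.3, 84.7 and 71.2 CPM after 1 h at 40 °C, 72.5, 65.1, 69.4 and 65.6 CPM after 6 h at 40 °C, and 57.6, 58.3, 57.6 and 57.2 CPM at 42.5 °C. The 40 °C 6 h and the 42.5 °C libraries lay below these controls without overlap, and the 42.5 °C libraries were lower than all libraries of 40 °C 6 h. Replicate D at 37 °C had 52 CPM, however, less than every heated library.

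The log2 difference of Csf1 from 37 °C was -0.24 ± 0.0538 after 6 h at 40 °C (adjusted p = 0.0031, edgeR) and -0.48 ± 0.0465 after 1 h at 42.5 °C (adjusted p = 1.14e-06). These are 1.18-fold and 1.4-fold lower, both short of the 1.5-fold limit. Of all genes tested, 14.8% were lower by the adjusted p alone after 6 h at 40 °C and 22.3% after 1 h at 42.5 °C. With all 4 controls the log2 differences were -0.11 (adjusted p = 0.631) and -0.34 (adjusted p = 0.109), so that passing the adjusted p depended on leaving out replicate D. After 1 h at 40 °C the log2 difference was -0.03 (adjusted p = 0.855, 95% interval -0.149 to 0.0888).

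Ccr7 (ENSCGRG00001022917), the receptor of CCL19 and CCL21, was at 17.9, 15.2 and 14.3 CPM at 37 °C, with 11.5 CPM in replicate D. It was 15.4, 17.2, 14.6 and 12.2 CPM after 1 h at 40 °C, 6.35, 4.91, 5.52 and 6.08 CPM after 6 h at 40 °C, and 8.94, 8.68, 7.56 and 8.91 CPM at 42.5 °C. The 40 °C 6 h libraries were the lowest, the 42.5 °C libraries lay above all of them, and both groups lay below every 37 °C and every 40 °C 1 h library, replicate D included.

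Relative to the control mean (15.8 ± 1.86 CPM, n = 3), Ccr7 was at 93.8% after 1 h at 40 °C, 36.1% after 6 h at 40 °C and 53.9% after 1 h at 42.5 °C. The log2 differences were -0.10 ± 0.114, -1.48 ± 0.12 and -0.90 ± 0.109. With all 4 controls in the mean these shares were 101%, 38.8% and 57.9%. No row was found by name for its ligand genes Ccl19 and Ccl21.

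Calls were made at an adjusted p under 0.05 together with a change of at least 1.5-fold. After 1 h at 40 °C, 0 of 7 tested members passed in the edgeR test and 0 in DESeq2, and 0.334% of all 10494 tested genes passed. Of the 4 tested members that were not selected on their values, 0 had an unadjusted p under 0.05 there, against 14.8% of all tested genes. After 6 h at 40 °C, 5 of 6 members passed against 3.11% of all 10499 tested genes, with Cxcl1, Ccl2, Ccl7 and Ccr7 lower and Cxcl12 higher. After 1 h at 42.5 °C, 2 of 7 passed, Cxcl1 and Ccr7, both lower, against 7.51% of all 10470 tested genes. The median log2 difference of the tested members was -0.12, -1.06 and -0.30 in this order, beside 0.000357, 0.00118 and -0.00167 over all tested genes. Since Cxcl1, Ccl2 and Ccr7 were selected on their falls under heat and are 3 of the tested members in each comparison, nothing is read from these counts or medians, nor from the counts between heated groups given further on. The 3 comparisons share their control libraries. The bars of all 3 comparisons show the members side by side.

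**Figure D3:**
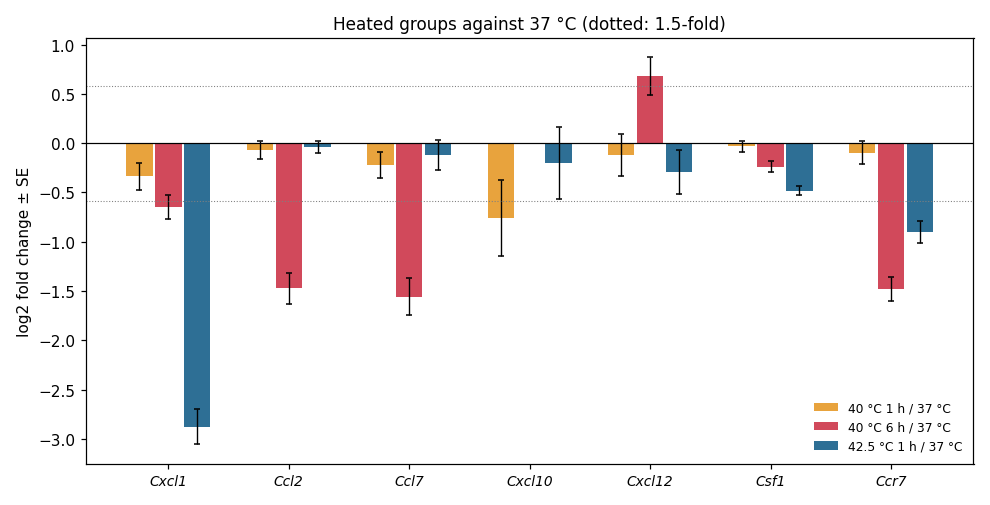
Log2 fold change ± SE of each detected member (horizontal axis) in the 3 heated groups against 37 °C (n = 4 against 3), with dotted lines at a 1.5-fold change. Cxcl1 has its longest bar at 42.5 °C (-2.88), Ccl2, Ccl7 and Ccr7 theirs after 6 h at 40 °C (-1.47, -1.56 and -1.48), and Cxcl12 alone points upward past the line (0.68 after 6 h at 40 °C). Cxcl10 has no bar after 6 h at 40 °C, where it did not pass the filter.

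Comparing the heated groups with one another asks how duration at 40 °C and temperature for 1 h changed the same genes, without the controls. Between 6 h and 1 h at 40 °C, 4 of 6 tested members passed, against 1.28% of 10439 genes, with Ccl2, Ccl7 and Ccr7 lower and Cxcl12 higher after 6 h. The log2 difference of Ccl7 was -1.34 ± 0.181 (adjusted p = 0.00019, edgeR), lower in 4 of 4 libraries than in any 1 h library. Cxcl12 rose by 0.80 (SE 0.155, adjusted p = 0.0023), a rise exceeded by 30 genes. The log2 differences of the selected genes were -1.40 for Ccl2, -1.38 for Ccr7 and -0.30 for Cxcl1, and Csf1 differed by -0.21 (adjusted p = 0.022), under the 1.5-fold limit.

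Between 42.5 °C and 40 °C, both for 1 h, 2 of 6 tested members passed, against 5.27% of 10441 genes. Both were selected genes, so the count is a description only. They were Cxcl1, with a log2 difference of -2.54 ± 0.209, and Ccr7, with -0.80 ± 0.114. Ccl2 (0.03 ± 0.0836), Ccl7 (0.10, adjusted p = 0.611, 95% interval -0.197 to 0.394) and Cxcl12 (-0.18, adjusted p = 0.472, 95% interval -0.558 to 0.207) did not pass. Csf1 was lower at 42.5 °C by 0.45 on the log2 scale (95% interval -0.567 to -0.338, adjusted p = 1.17e-05), under the 1.5-fold limit.

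The short hot and the long mild treatment differed in both directions. At 42.5 °C for 1 h against 40 °C for 6 h, 4 of 6 tested members passed, against 8.25% of 10427 genes, with Ccl2 and Ccl7 higher and Cxcl1 and Cxcl12 lower at 42.5 °C. The log2 difference was 1.43 ± 0.152 for Ccl2 and 1.43 ± 0.195 for Ccl7 (adjusted p = 1.58e-05, edgeR), -2.24 ± 0.194 for Cxcl1 and -0.98 ± 0.167 for Cxcl12 (adjusted p = 0.000154). Ccr7 was 1.49-fold higher at 42.5 °C, just short of the 1.5-fold limit. Csf1 was lower by 0.25 on the log2 scale (95% interval -0.356 to -0.137, adjusted p = 0.000927). Cxcl10 did not pass the filter on low counts in this comparison. With no filter its log2 difference was 1.29 ± 0.458, a description with no p-value that rests on 2 to 6 counts per 40 °C 6 h library. The bars between heated groups show Cxcl1 and the Ccl2 and Ccl7 pair pointing to opposite sides in this comparison.

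**Figure D4:**
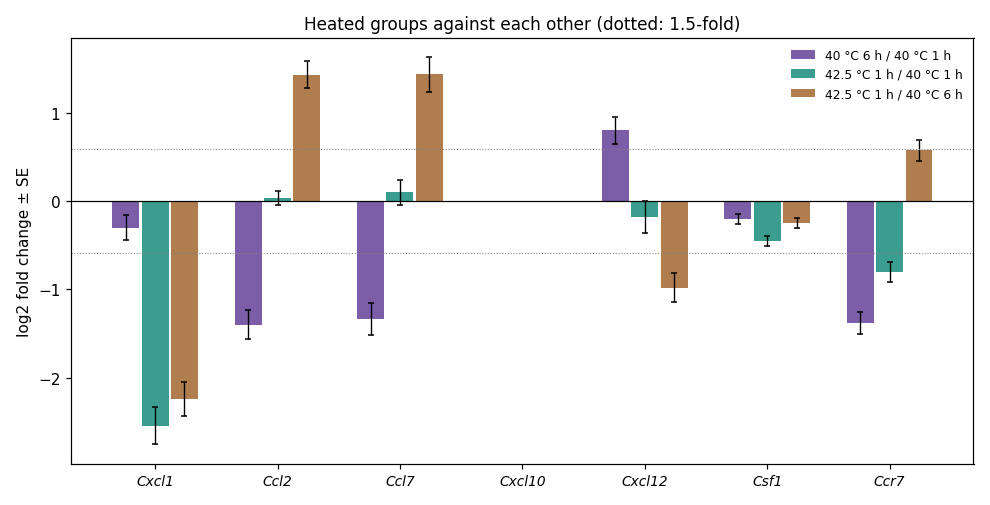
Log2 fold change ± SE of the tested members (horizontal axis) between heated groups (n = 4 each), named as the group above against the group below the stroke, with dotted lines at a 1.5-fold change. In 42.5 °C 1 h against 40 °C 6 h, Ccl2 and Ccl7 are at 1.43 and Cxcl1 is at -2.24, and Cxcl10 was not tested in these comparisons.

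The order of the levels therefore differed between members. For Cxcl1 the controls came first, followed by 1 h and then 6 h at 40 °C, with 42.5 °C last, and only the last step was free of overlap. For Ccl2, Ccl7 and Cxcl10 the controls were followed by 42.5 °C, then 1 h and last 6 h at 40 °C, with no overlap at the last step for Ccl2 and Ccl7. For Ccr7, 37 °C and 40 °C 1 h overlapped, followed by 42.5 °C 1 h and then 40 °C 6 h without overlap, and for Csf1 the last step, from 40 °C 6 h to 42.5 °C 1 h, did not overlap. For Cxcl12 the 40 °C 6 h level came first and the other 3 overlapped.

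Libraries of a group also differed in the level of heat-induced genes. The summed level of 4 of these, Dnajb1, Hsph1, Hspb1 and Zfand2a, was 417 to 432 CPM at 37 °C, 624 to 1220 CPM after 1 h at 40 °C, 761 to 1350 CPM after 6 h at 40 °C and 2490 to 5420 CPM at 42.5 °C. Within 40 °C 6 h, replicate B had the lowest level of 5 of the 7 members, Ccl2, Ccl7, Cxcl10, Csf1 and Ccr7. It had the highest level of Dnajb1 (54.5 CPM) and Hsph1 (1070 CPM) in its group, whereas Hspb1 was highest in replicate C (207 against 205 CPM) and Zfand2a in replicate D (18.9 against 17.3 CPM). Within 40 °C 1 h, replicate A had the highest level of Dnajb1, Hsph1 and Zfand2a and the lowest level of 3 members, Cxcl1, Ccl2 and Cxcl10. Hspb1 was highest in replicate C, which was lowest for 1 member. Replicate B, with the lowest level of all 4 heat-induced genes, was lowest for 0 members, and replicate D was lowest for 3. Within 42.5 °C, replicate D had the highest level of all 4 heat-induced genes and the lowest level of 2 members. Replicate C, with the lowest level of all 4, had the lowest level of 3 members. The part of the heat response in the members' levels was not tested.

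Few other genes of the chemokine system were counted under a name searched here. Of 32 other chemokine ligands searched by name, 20 had a row, 7 had any count and 2 passed the filter, Cxcl16 and Ccl17. Neither passed the edgeR test against 37 °C in any heated group. At 42.5 °C, 1 of the 2 had an unadjusted p under 0.05, as did 50.7% of all tested genes. Cxcl16, which like fractalkine has a membrane-anchored form, was at 7.74 ± 0.985 CPM at 37 °C, 9.15 ± 1.47 after 1 h at 40 °C, 7.17 ± 1.3 after 6 h at 40 °C and 9.49 ± 1.62 CPM at 42.5 °C. Ccl17, a ligand of CCR4, was lower at 42.5 °C than at 40 °C for the same 1 h (log2 difference -0.69 ± 0.249, adjusted p = 0.0399, edgeR), at 1.52 ± 0.427 against 2.46 ± 0.66 CPM. Both are named because they were the only 2 tested, a choice made after their values were seen. Ligands without a row by name may be among the genes listed by identifier only or under another name. Cxcl2 had no row by name, and the study, which names genes by mouse ortholog, lists CXCL2 among its most decreased genes at 42.5 °C. Which row of the matrix this is was not determined.

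Of 22 receptor genes searched, 21 had a row, 14 had any count and up to 4 besides Ccr7 were tested in a comparison. The receptors that the members' products are known to bind were nearly absent. Ccr2 and Cx3cr1 had 0 counts in all 16 libraries, Cxcr2, Cxcr4 and Csf1r had at most 1 count in a library, Cxcr3 had at most 4 counts, and Ccr6 had no row by name. At this depth these counts allow no statement on their change. Ackr3, the atypical receptor that takes up CXCL12, was the exception, at 58.1 ± 1.01 CPM at 37 °C, 49.2 ± 5.13 after 1 h at 40 °C, 41.8 ± 2.12 after 6 h at 40 °C and 48.7 ± 2.66 CPM at 42.5 °C. Its log2 difference from 37 °C was -0.48 after 6 h at 40 °C (adjusted p = 1.91e-05, edgeR) and -0.27 after 1 h at 42.5 °C (adjusted p = 0.00129), both under the 1.5-fold limit. With replicate D (46.9 CPM) among the controls these were -0.41 (adjusted p = 0.0193) and -0.18 (adjusted p = 0.196).

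The receptor genes called against 37 °C were Ccr10 and Ccrl2, both at 42.5 °C, 2 of 3 tested there against 7.51% of all tested genes. Ccr10, a receptor of skin-homing T cells, was at 2.66 to 3 CPM there against 4.05 to 5.4 CPM at 37 °C (log2 difference -0.74 ± 0.162, adjusted p = 0.00179, edgeR). Ccrl2, a non-signalling receptor related to the chemokine receptors, was at 4.93 to 7.08 CPM against 10 to 10.4 CPM (-0.74 ± 0.125, adjusted p = 0.000222). The groups did not overlap for either gene, and both calls held with all 4 controls (adjusted p = 0.00716 and 0.00338). Ccrl2 was also lower after 6 h at 40 °C, under the 1.5-fold limit (-0.46, adjusted p = 0.0139, and 0.0443 with all 4 controls). Between 42.5 °C and 40 °C 6 h the log2 difference was -0.28 for Ccrl2 (adjusted p = 0.138) and -0.55 for Ccr10 (adjusted p = 0.0152). Among other colony-stimulating factors, Csf3, which encodes the neutrophil factor G-CSF, was named after its values were seen. It was at 1.11 ± 0.301 CPM at 37 °C, 0.942 ± 0.0535 after 1 h and 0.584 ± 0.26 CPM after 6 h at 40 °C. At 42.5 °C it was at 0.336 ± 0.169 CPM, on at most 5 counts per library. Between 42.5 °C and 40 °C for 1 h it passed the filter only through the 40 °C 1 h libraries, and between 42.5 °C and 37 °C it was not tested. The levels are therefore a description with no p-value. The study lists CSF3 among its most decreased genes at 42.5 °C. The panels of these genes show how their levels compare with the members' patterns.

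**Figure D5:**
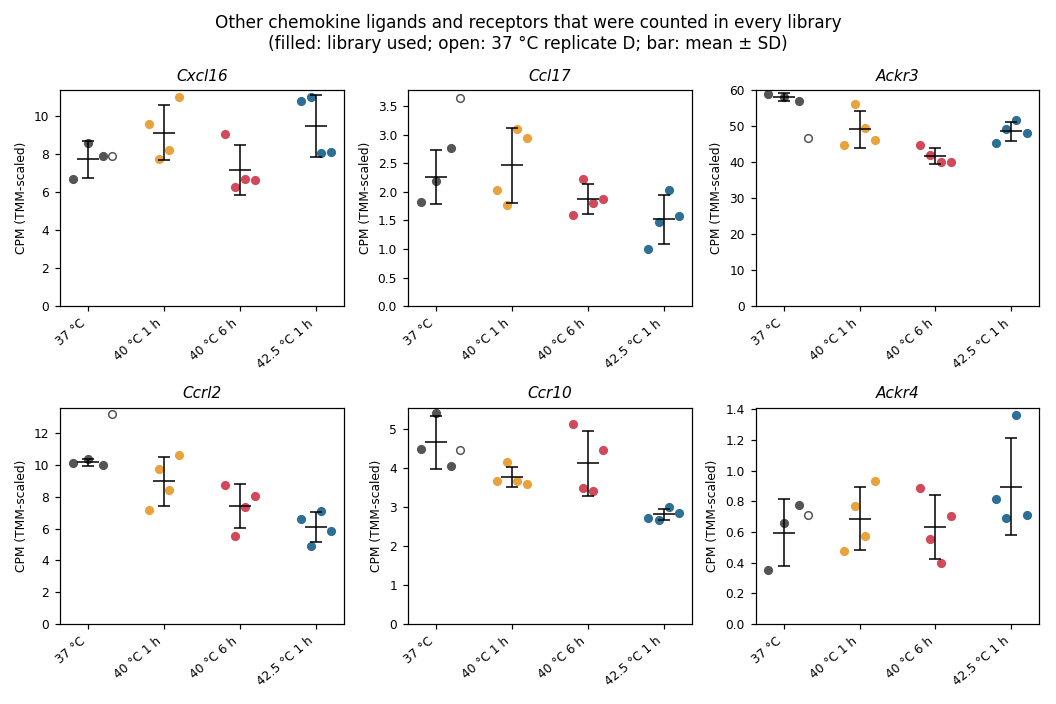
Levels of 6 other chemokine ligand and receptor genes in each library, in CPM scaled by TMM (vertical axis, starting at 0 in each panel) for the 4 heat groups (horizontal axis). Filled points are libraries, bars are mean ± SD (n = 3 at 37 °C and 4 in each heated group), and open points are 37 °C replicate D. Ccrl2 and Ccr10 are lowest at 42.5 °C (6.11 and 2.8 CPM on average), and Ackr3 is lowest after 6 h at 40 °C (41.8 CPM).

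Inflammatory chemokine genes are transcribed through NF-kB, and their messengers are targets of decay factors, so both gene groups were described beside them. Of 16 NF-kB subunit and inhibitor genes searched, 13 were tested in every comparison, and Nfkbia had no row by name. Against 37 °C, 0 of 13 were called after 1 h at 40 °C and 0 after 6 h at 40 °C by edgeR, where 3 and 9 had an unadjusted p under 0.05, against 14.8% and 41% of all tested genes. In all, 7 of 13 were lower after 6 h by the adjusted p alone, against the 14.8% of all genes. The 7 included Nfkb2 (log2 difference -0.44, adjusted p = 6.01e-06), Relb (-0.50, adjusted p = 0.00131) and Tnfaip3 (-0.54, adjusted p = 3.26e-05), which were named after their values were seen. With all 4 controls 3 of 13 were lower in this way, among them Nfkb2 (adjusted p = 0.00361) and Relb (adjusted p = 0.0253), but not Tnfaip3 (-0.38, adjusted p = 0.185). The median log2 difference of the list was -0.0203 after 1 h at 40 °C, -0.255 after 6 h at 40 °C and -0.0717 at 42.5 °C.

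At 42.5 °C, 2 of 13 were called, both higher, against 7.51% of all tested genes. The study lists NFKBIA, which had no row by name here, among its most decreased genes at this dose. By the adjusted p alone, 3 of 13 were lower there, Tnip1 (log2 difference -0.34, adjusted p = 0.000199), Ikbkb (-0.18, adjusted p = 0.012) and Ikbkg (-0.30, adjusted p = 0.0192), named after their values were seen, against 22.3% of all tested genes. With all 4 controls this was 1 of 13. Nfkbiz, which encodes a nuclear regulator of NF-kB target genes, was at 14.1, 21.2, 14.3 and 28.8 CPM against 4.74 to 6.25 CPM at 37 °C (log2 difference 1.83 ± 0.229, adjusted p = 1.56e-05, edgeR). Tnfaip3, which encodes an enzyme that edits ubiquitin chains and restrains NF-kB signaling, was at 129, 176, 96.9 and 181 CPM against 68.8 to 71.1 CPM (1.06 ± 0.15, adjusted p = 4.77e-05). Of 6 mRNA decay factor genes, 2 were called at 42.5 °C, both higher, against the same 7.51%. These were Zc3h12a, which encodes an RNase of inflammatory transcripts (0.89 ± 0.134, adjusted p = 8.51e-05), and Zfp36l1, which encodes a binder of AU-rich elements (0.71 ± 0.134, adjusted p = 0.000566). All 4 calls held with all 4 controls, with adjusted p between 0.00147 and 0.0142. None of the 6 decay factor genes was called in the other 2 groups against 37 °C by edgeR, where 2 and 5 of them had an unadjusted p under 0.05, against 14.8% and 41% of all tested genes. After 6 h at 40 °C, 3 were lower and 2 higher by the adjusted p alone, which 3091 of all 10499 tested genes passed in either direction. Of 5 protease genes searched, among them those that release membrane-anchored chemokines, Adam17 and Mmp9 were tested and neither was called against 37 °C by edgeR. An unadjusted p under 0.05 was found for 0, 2 and 0 of them in the order of the groups, against 14.8%, 41% and 50.7% of all tested genes. Whether these genes have a part in the members' levels was not tested.

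Genes whose 3 log2 differences from 37 °C lay nearest to those of a member were sought among 9130 genes with a mean of at least 1 CPM, by the root mean square difference over the 3 heat doses. For Ccl2 the nearest were Atp6v1g2 (0.0882), Ccl7 (0.11), Hnrnpdl (0.209), Herc3 (0.226) and Etv5 (0.239). For Ccr7 they were Tfap2e (0.186), Nxpe4 (0.262), Gm1110 (0.271), Capn8 (0.326) and Dnajb3 (0.343). For Cxcl1 they lay farther away, Tlr6 (0.488), Hps6 (0.564), Rab20 (0.638), Osbpl7 (0.645) and Myorg (0.656). The largest difference of Tlr6, which encodes a Toll-like receptor, was at 42.5 °C, with -2.26 beside -2.88 for Cxcl1. All points of this measure share the same control libraries and are given as a description.

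Near the 1.5-fold limit, Cxcl1 (1.56-fold lower) and Cxcl12 (1.6-fold higher) after 6 h at 40 °C lay just past it. Ccr7 in the comparison of both stronger treatments, 42.5 °C and 40 °C 6 h (1.49-fold), and Csf1 at 42.5 °C against 37 °C (1.4-fold lower) fell just short of it.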

How the data were processed

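The authors mapped paired-end TruSeq reads to CHOK1GS_HDv1 and counted them per gene in CLC Genomics Workbench. The deposited values are whole-number counts without normalization. Demultiplexing with bcl2fastq is named in the submitters' processing notes. The annotation release, strand setting and treatment of reads with several matches are not given in the sources used here.

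The members and all gene lists were chosen with earlier results of these data known. Group pairs were compared by the quasi-likelihood test of edgeR 4.0.16 (R 4.3.3) after filterByExpr and TMM, without 37 °C replicate D, and p-values were adjusted by Benjamini-Hochberg over all genes tested. The limits for calls, adjusted p 0.05 and fold 1.5, were those of the study. Alternatives were DESeq2 1.42.0, its size factors, other count filters and calling rules, a joint fit of the 4 groups, a block for the replicate letter, all 4 controls, and leaving out each library. Scripts were tested on simulated data. P-values measure the spread between these cultures, and floors cover counting error only.

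Letters were checked as pairs by correlating deviations from group means. Same-letter pairs of 40 °C 1 h and 37 °C had r between 0.12 and 0.2, which counts as paired here, and the block left 0 members called. Elsewhere not every pair exceeded 0.1.

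Named genes were the members, the list genes called against 37 °C (at most 8 a list), and the 5 genes nearest in pattern to Cxcl1, Ccl2 and Ccr7 each. Others are marked as named after their values were seen, except the marker and heat check genes and the members' receptors. The RefSeq table of another build, CriGri-PICRH-1.0, held 7 of the 9 members and was used for names only.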

Additional observations from a re-analysis of the deposited data

Results flagged for a closer look

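Among 28 gene and group pairs of 4 libraries, 2 held a library far from the other 3 by Dixon's test, at a limit that chance passes in about 1 of 20 groups. Cxcl12 was at 4.28 CPM (63 counts) in 40 °C 1 h replicate A, against 3.1 to 3.18 CPM in replicates B to D. Csf1 was at 52 CPM (585 counts) in 37 °C replicate D, against 78.9 to 81.5 CPM in replicates A to C, and this library also stood apart across all genes.

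The level of a gene differed between heated groups, by the edgeR test of these groups against each other, for 2 of the members not selected on these contrasts. Both comparisons involve the 6 h group, where heat duration and time in culture cannot be told apart. For Ccl7 the log2 difference was -1.34 between 6 h and 1 h at 40 °C (lower in 4 of 4 libraries) and 1.43 at 42.5 °C against 6 h at 40 °C (higher in 4 of 4). For Cxcl12 the corresponding values were 0.80 (higher in 4 of 4) and -0.98 (lower in 4 of 4).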

How the results depend on the processing

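Of 524 alternative values of the members' log2 differences, 7 changed sign and 1 lost its call among the members given a p-value. The other 516 kept both or, for Cxcl1, Ccl2 and Ccr7, moved by less than 1 SD between replicates. Among the latter, differences near 0 also changed sign (Ccl2 at 42.5 °C from -0.04 to 0.03 and Ccr7 after 1 h at 40 °C from -0.10 to 0.01), Cxcl1 after 6 h at 40 °C fell short of 1.5-fold without 40 °C 6 h replicate C (-0.56), and Ccr7 at 42.5 °C against 40 °C 6 h passed it without 40 °C 6 h replicate A or D or 42.5 °C replicate C (0.61 to 0.63). The 7 sign changes concerned differences that had not passed the test. Leaving out single libraries, Cxcl12 after 1 h at 40 °C ranged from -0.34 to 0.10 (main -0.12), the highest without 37 °C replicate B. Csf1 after 1 h at 40 °C ranged from -0.0679 to 0.0113 (main -0.03), and was 0.0128 under the replicate block and 0.101 with all 4 controls. Cxcl10 at 42.5 °C ranged from -0.46 to 0.18 (main -0.20), with 0.0209 without 42.5 °C replicate D and 0.0179 under the block. The call lost was Cxcl12 after 6 h at 40 °C without 37 °C replicate C (0.46, adjusted p = 0.0687).

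Of 96 alternative counts of members called, 91 stayed within 1.5 times the main count. With glmTreat at a fold of 1.5, 3 members were called after 6 h at 40 °C against 37 °C, 2 between 6 h and 1 h at 40 °C, and 1 between 42.5 °C and 40 °C for 1 h. Over all tested genes, 31, 8 and 171 were called by glmTreat in the same comparisons. With at least 10 counts in every library, 1 was called at 42.5 °C against 37 °C and 1 against 40 °C 1 h, since Cxcl1 had 9 counts in a 42.5 °C library and was no longer tested. The replicate block changed no count of members called (0, 5, 2, 4, 2 and 4 in the 6 comparisons). Outside the comparison of 40 °C 1 h with 37 °C, the letters gave mean correlations of 0.028 to 0.064 and are taken as shared names only. By the adjusted p alone, 0, 6, 3, 5, 3 and 6 members passed. Over all genes, 172 of 10494, 3091 of 10499, 4510 of 10470, 1931 of 10439, 3767 of 10441 and 4904 of 10427 passed in this way. The CPM levels on raw library totals moved beyond 1 SD for Csf1 only, to 82.2 at 37 °C and 55.9 at 42.5 °C. Low counts limit the precision of Cxcl10 (2 to 19 counts), Ccl7 (15 to 72), Cxcl12 (24 to 90) and, at 42.5 °C, Cxcl1 (9 to 24).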
